A study of Mus musculus with 16 samples.

Results

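The genes described here encode hydrolases of the lysosome, the proteins of its membrane and the factors that equip its enzymes. They are 33 genes picked by symbol from a list of lysosomal genes that leaves out the cathepsins, out of 29695 genes in the deposited count table. All 33 were in the table, and all 33 passed the filter on low counts that left 15984 genes for testing. Their deposited counts lay between 70 and 26324 reads in a library.

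Lysosomes are acidic compartments in which hydrolases take apart proteins, glycans, lipids and glycosaminoglycans that arrive by endocytosis, phagocytosis and autophagy. Most soluble hydrolases receive a mannose phosphate tag in the Golgi that routes them there, and the membrane proteins protect the limiting membrane and export the products. Many of these genes share a promoter element, the CLEAR motif, that is bound by the transcription factor TFEB and its relatives. VAMP8, the product of the gene deleted in this study, is a SNARE protein that takes part in fusion of late endosomes, autophagosomes and lysosomes and in regulated secretion.

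RNA came from suprarenal aorta of male mice, the stretch of abdominal aorta just above the kidney arteries. There were 4 groups with 4 libraries each: Vamp8-/- mice given angiotensin II (AngII, a peptide that raises blood pressure; 1000 ng/kg/min) by subcutaneous osmotic minipump for 5 days (KO AngII), Vamp8-/- mice given saline in the same way (KO saline), C57BL/6 wild-type mice given AngII (WT AngII) and wild-type mice given saline (WT saline). By their titles, the 4 libraries in each group are biological replicates. The sources used here do not give age, littermate status or the part of Vamp8 that is missing. The deletion is not restricted to a cell type by anything in the labels, and vessels that had bled into the wall or looked diseased had been left out.

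Libraries held 13284804 to 21643548 counts. Vamp8 itself counted 14.1 to 26.7 CPM (counts relative to library size, itself scaled by trimmed mean of M values; the unit of every level below) in KO AngII libraries and 24.9 to 31.4 CPM in 3 KO saline libraries, against 45.9 to 60.9 CPM in the 8 WT libraries. The library labelled KO saline replicate 1 counted 53.3 CPM, within the WT range and against its label, so several differences that use KO saline are also given without it. It also had the lowest scaling factor (0.716) and the highest summed level of 6 brown adipocyte markers (8260.5 CPM). KO AngII replicate 4 had 2948 CPM of 8 neuron and chromaffin markers. WT AngII replicates 3 and 4 had the highest sums of 10 macrophage markers (532 and 648 CPM) and of 6 fibroblast markers (9083 and 15604 CPM). Smooth muscle markers, 6 genes, summed to 5492 to 16144 CPM in KO AngII and 8420 to 11250 CPM in KO saline. In WT AngII they summed to 11539 to 17030 CPM and in WT saline to 7677 to 20828 CPM, lowest in WT saline replicate 2. None of them was at 0 in any library. The part of smooth muscle content in the member differences was not tested. The sources do not say whether both genotypes went through alignment and counting in a single run, so a difference in counting cannot be told apart from genotype.

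In brief, edgeR called no member for AngII in either genotype, where it called 0.444% of all genes tested in WT and 0.0501% in KO. DESeq2 called Arsb, Npc1 and Scarb2 higher with AngII in KO, where it called 734 of 15827 genes. A handful of members were lower in KO than in WT aorta. Manba and Npc1 were called lower in KO under saline. Manba, Hexa and Gusb were called lower in KO under AngII. The shares of all genes tested called lower in KO were 1.78% under saline, 1.03% under AngII and 4.47% averaged over both infusions. On that average, 6 members were called lower in KO (Manba, Npc1, Gusb, Hexa, Man2b1 and Naglu) and none higher. In the deposited table these are ENSMUSG00000028164 (Manba), ENSMUSG00000024413 (Npc1), ENSMUSG00000025534 (Gusb), ENSMUSG00000025232 (Hexa), ENSMUSG00000005142 (Man2b1) and ENSMUSG00000001751 (Naglu). "Called" means a Benjamini-Hochberg adjusted p under 0.05 over 15984 genes in edgeR's quasi-likelihood test.

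**Figure D1:**
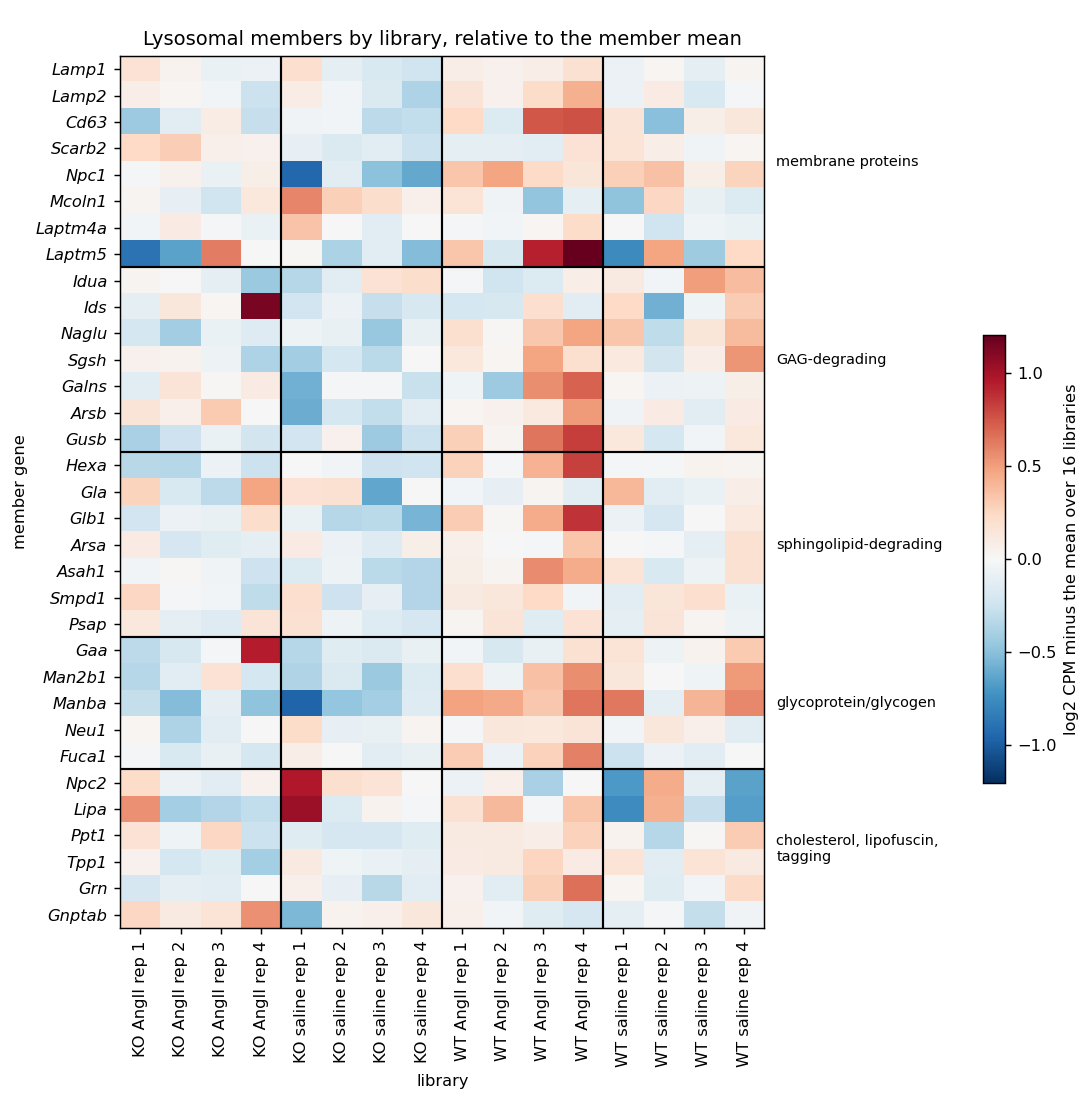
Level of each of the 33 members (rows, grouped by role) in each of the 16 libraries (columns; KO AngII, KO saline, WT AngII, WT saline), as log2 CPM minus the member's mean over the libraries. WT AngII replicate 4 was the highest library for 14 of 33 members, and KO saline replicate 1 was the highest for 7 and the lowest for another 7.

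The members were not equally abundant. Per kilobase of exon in an older mouse annotation, Psap led in all 4 groups: it averaged 493 CPM per kb over the 16 libraries, and it took 23.8% to 30.9% of the summed CPM of the members in a library. Psap encodes prosaposin, the precursor of the saposins that present sphingolipids to their hydrolases. It counted 1467, 1241, 1209 and 1502 CPM in KO AngII, 1529.8, 1293, 1211 and 1176 CPM in KO saline, 1379, 1501, 1215 and 1522 CPM in WT AngII, and 1249, 1498, 1381 and 1293 CPM in WT saline. The 4 groups overlapped throughout. Laptm4a, a small membrane protein of late endosomes and lysosomes, followed at 295 CPM per kb and Lamp1, a main glycoprotein of the lysosomal membrane, at 179 CPM per kb. Laptm4a counted 510.1, 556, 514 and 492 CPM in KO AngII, 659.6, 519.7, 478 and 522 CPM in KO saline, 516, 510.1, 528 and 605 CPM in WT AngII, and 523, 440.0, 502 and 493 CPM in WT saline. Its highest library was the one labelled KO saline replicate 1. Cd63, Hexa and Grn formed the next tier at 67.7, 57.0 and 54.9 CPM per kb, and their ranges over libraries overlapped. At the low end, Npc1 averaged 2.71 and Gla, the galactosidase that trims globotriaosylceramide, 2.37 CPM per kb, again with overlapping ranges. Lengths took in all annotated exon bases of a gene (11317 for Npc1 and 3265 for Gla), so the order depends on the annotation.

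Summed over the 33 members, the level was 4771 ± 196 CPM in KO AngII and 4628 ± 527 CPM in KO saline, against 5239 ± 445 CPM in WT AngII and 4759 ± 98.1 CPM in WT saline (SD, n = 4 each). Of the 33 members, 23 had their highest group mean in WT AngII and 18 their lowest in KO saline. Replicates of a group were close for most members: the coefficient of variation within groups had a median of 13.1% over members, and ranged from 7.51% for Scarb2 to 36.6% for Laptm5.

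The first comparison asked how loss of Vamp8 goes with lysosomal transcripts in saline-infused aorta, KO saline against WT saline. Both calls were falls, in a glycosidase and a cholesterol transporter. Of 33 members, 2 were called lower and none higher, where 3.01% of all genes tested were called, 1.78% lower and 1.23% higher. The log2 fold change was negative for 26 members and positive for 7, with a median of -0.15 against 0.05 over all genes tested. Without the library labelled KO saline replicate 1 it was positive for 5 members, with a median of -0.23 against -0.002 over all genes tested. By role, the sign was negative for 7 of 7 glycosaminoglycan-degrading enzymes (median -0.26), 7 of 7 sphingolipid enzymes and activators (median -0.13), 6 of 8 membrane proteins (median -0.11), 3 of 5 glycoprotein and glycogen glycosidases (median -0.30) and 3 of 6 in the cholesterol, lipofuscin and tagging group (median -0.03). Mitochondrial counts took 26.96% to 32.8% of KO saline libraries, against 8.33% to 17.7% of WT saline libraries; with them removed before scaling, both calls stood. The 6 fibroblast markers summed to 2619 to 3828 CPM in KO saline, against 3845 to 7133 CPM in WT saline, without overlap, and none of them was called. The macrophage markers, 10 genes, were lower in KO by sign for 9 and none was called, and their part in the saline differences, like that of fibroblasts, was not tested.

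Manba encodes lysosomal beta-mannosidase, which removes the last mannose when N-linked glycans are degraded. Manba counted 21.8, 18.6, 24.8 and 19.1 CPM in KO AngII, 13.7, 19.4, 20.1 and 23.9 CPM in KO saline, 37.2, 36.6, 33.4 and 41.8 CPM in WT AngII, and 41.4, 24.5, 35.3 and 39.8 CPM in WT saline. Every KO saline library lay below every WT saline library, although WT saline replicate 2 came close. Under saline its level in KO was 0.546 times that in WT (log2 fold change -0.87, SE 0.18, edgeR adjusted p = 0.0224), and without the library labelled KO saline replicate 1 the log2 fold change was -0.78 (adjusted p = 0.0458). The call was lost without WT saline replicate 1, 3 or 4 (adjusted p = 0.0833, 0.0607 and 0.0772) and without KO saline replicate 2 or 3 (adjusted p = 0.0603 and 0.0525), at log2 fold changes of -0.79 to -0.89. It was also lost when only the 8 saline libraries were fitted (adjusted p = 0.0769).

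Npc1 encodes the membrane transporter that exports cholesterol from the lysosome. Npc1 counted 29.5, 30.8, 28.2 and 31.2 CPM in KO AngII, 15.5, 27.0, 21.2 and 19.4 CPM in KO saline, 37.6, 41.4, 34.8 and 32.8 CPM in WT AngII, and 36.3, 38.0, 31.3 and 35.9 CPM in WT saline. All 8 KO libraries lay below all 8 WT libraries, and the KO saline libraries were the lowest. Under saline its level in KO was 0.588 times that in WT (log2 fold change -0.77, SE 0.14, edgeR adjusted p = 0.0131). It was -0.69 without the library labelled KO saline replicate 1 (adjusted p = 0.0239), and the call held in all 16 fits that left out 1 library (highest adjusted p = 0.0464). With only the saline libraries fitted it was lost (adjusted p = 0.0617). By an older annotation, 5.31% of its exon bases lie in other genes on the opposite strand, and the strand setting of the counting is not given.

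**Figure D2:**
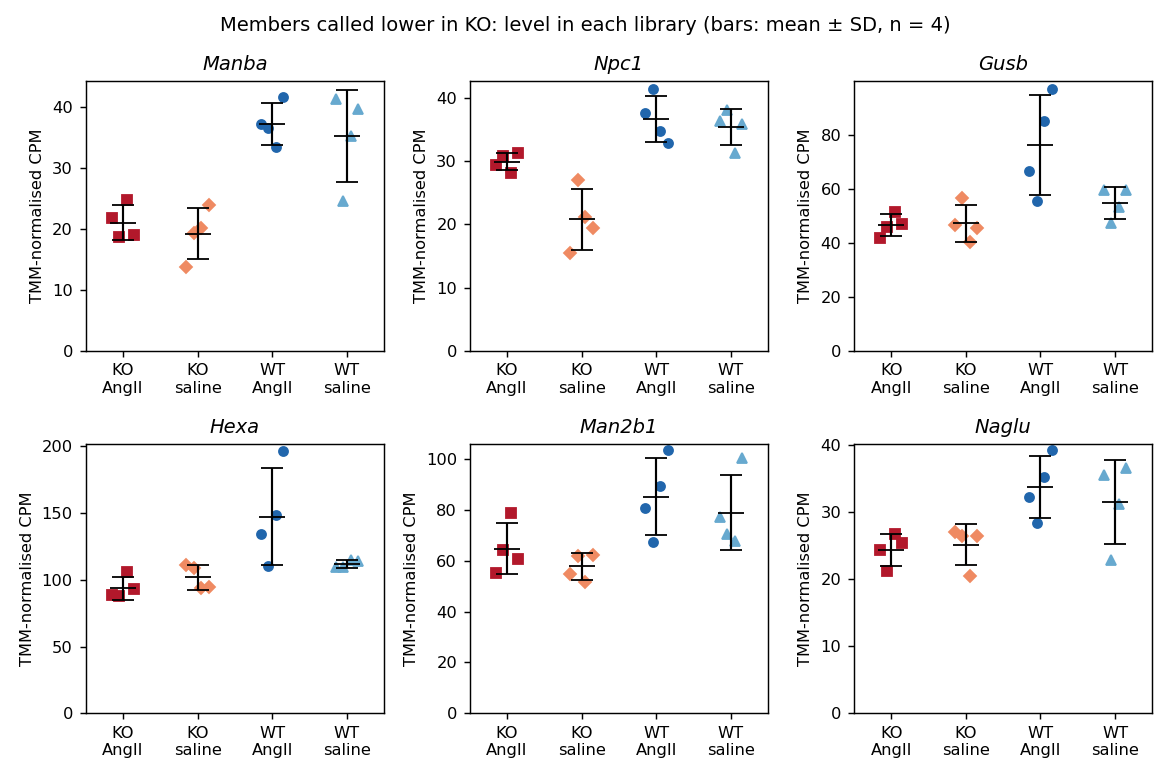
Level in CPM (vertical axes, from 0) of the 6 members called lower in KO on average, 1 point per library, with the mean ± SD of the 4 libraries of a group. For Npc1 all 8 KO libraries lie below all 8 WT libraries, and for Hexa and Gusb the WT AngII libraries reach 196 and 97.1 CPM.

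By smallest p, the next members under saline were Man2b1 and Mcoln1, neither of them called by edgeR. Man2b1, lysosomal alpha-mannosidase, counted 55.3, 64.2, 78.8 and 60.5 CPM in KO AngII, 54.8, 62.0, 51.6 and 62.4 CPM in KO saline, 80.5, 67.4, 89.5 and 103 CPM in WT AngII, and 77.0, 70.5, 67.7 and 100.2 CPM in WT saline. The saline groups did not overlap, while 1 KO AngII library lay among the WT AngII libraries. The log2 fold change under saline was -0.45 (SE 0.16, adjusted p = 0.13 in edgeR's quasi-likelihood test), and -0.47 (adjusted p = 0.198) without the library labelled KO saline replicate 1. By limma voom, which called 3197 of 15984 genes tested under saline, it was called lower (-0.44, adjusted p = 0.0394). Mcoln1, a cation channel that releases lysosomal calcium, counted 26.3, 23.9, 21.8 and 28.0 CPM in KO AngII, 38.6, 31.2, 29.8 and 26.7 CPM in KO saline, 28.7, 24.9, 18.5 and 23.6 CPM in WT AngII, and 18.4, 30.5, 24.1 and 22.9 CPM in WT saline. Its saline groups overlapped, with WT saline replicate 2 among the KO values (log2 fold change 0.40, SE 0.17, adjusted p = 0.195), though limma voom called it higher (0.46, adjusted p = 0.03). Without the library labelled KO saline replicate 1, the highest for Mcoln1, its log2 fold change was 0.25 (adjusted p = 0.513). In all, 6 members did not overlap between the saline groups and all 6 were lower in KO (Arsb, Gaa, Man2b1, Manba, Npc1 and Scarb2), where 5.94% of all genes tested were lower and 5.17% higher without overlap.

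The second comparison, KO AngII against WT AngII, asked the same of AngII-infused aorta, in 8 other libraries. Here the calls were 3 glycosidases, all lower in KO. They were 3 of 33 members, where 2.03% of all genes tested were called, 1.03% lower and 0.995% higher. The sign was again negative for 26 members and positive for 7, with a median log2 fold change of -0.23 against 0.04 over all genes tested. By role, it was negative for 6 of 7 glycosaminoglycan-degrading enzymes (median -0.23), 6 of 7 sphingolipid enzymes and activators (median -0.19), 6 of 8 membrane proteins (median -0.17), 4 of 5 glycoprotein and glycogen glycosidases (median -0.40) and 4 of 6 in the cholesterol, lipofuscin and tagging group (median -0.20). The 2 comparisons share no library: 22 members were negative in both, 3 positive in both and 8 of opposite sign. These counts were not made over all genes tested, so they describe the members and do not set them apart from other genes.

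**Figure D3:**
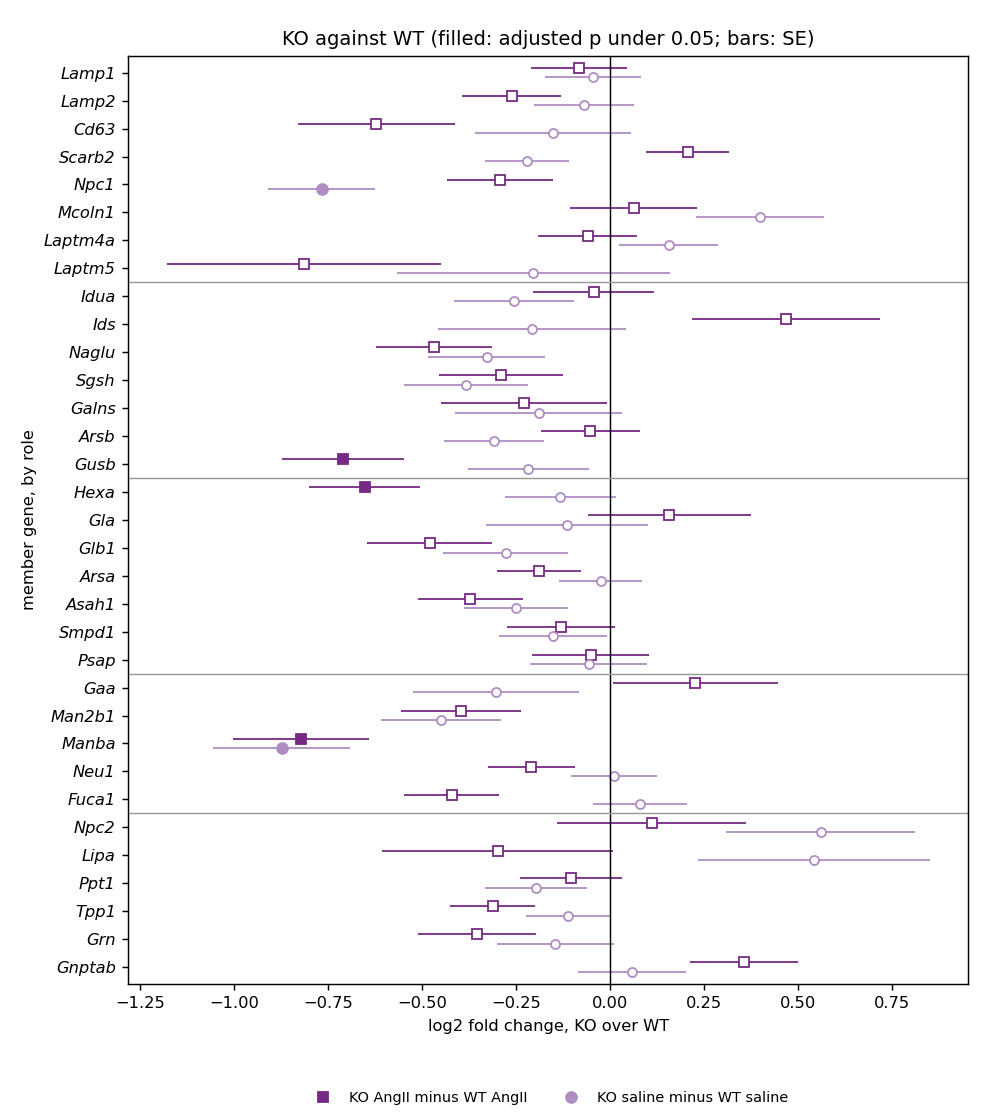
log2 fold change of each member in KO over WT (horizontal axis; bars are SE), under AngII (squares) and under saline (circles), grouped by role; filled symbols have an adjusted p under 0.05. The filled symbols are Manba in both comparisons, Npc1 under saline, and Hexa and Gusb under AngII, all to the left of 0.

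Manba was lower in every KO AngII library than in any WT AngII library, by -0.82 on the log2 scale (SE 0.18, 0.566 times the WT level, edgeR adjusted p = 0.0359). That size was close to the -0.87 under saline, and the interaction was 0.05 (adjusted p = 0.945). The adjusted p passed 0.05 without WT AngII replicate 1, 3 or 4 (0.0709, 0.0723 and 0.125), without KO saline replicate 2 or 3 (0.0505 and 0.0529) and without KO AngII replicate 2 or 4 (0.0748 and 0.0631), at log2 fold changes of -0.76 to -0.87.

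Hexa encodes the alpha subunit of beta-hexosaminidase A, which degrades gangliosides. Hexa counted 88.4, 87.7, 106 and 93.1 CPM in KO AngII, 111, 109, 93.6 and 94.4 CPM in KO saline, 135, 110.3, 148 and 196 CPM in WT AngII, and 109, 109, 115 and 114 CPM in WT saline. The AngII groups did not overlap. The difference between them came with high WT AngII values, while both saline groups lay close together. The log2 fold change in KO over WT was -0.65 under AngII (SE 0.15, edgeR adjusted p = 0.0385) and -0.13 under saline (adjusted p = 0.602). Gusb encodes beta-glucuronidase, which acts late in glycosaminoglycan breakdown. Gusb counted 41.7, 46.0, 51.5 and 46.9 CPM in KO AngII, 46.4, 56.6, 40.3 and 45.5 CPM in KO saline, 66.6, 55.6, 85.1 and 97.1 CPM in WT AngII, and 59.5, 47.2, 53.1 and 59.7 CPM in WT saline. Again the AngII groups did not overlap and the saline groups did. The log2 fold change was -0.71 under AngII (SE 0.16, adjusted p = 0.0396 in edgeR's quasi-likelihood test) and -0.22 under saline (adjusted p = 0.425). For neither gene was the difference between infusions itself called: the interaction was -0.52 for Hexa (adjusted p = 0.422) and -0.49 for Gusb (adjusted p = 0.441). By an older annotation, 12.8% of the exon bases of Hexa lie in another gene on the opposite strand, and none of those of Gusb.

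The calls of Hexa and Gusb lay close to the threshold, and leaving out 1 library often removed them. This held for KO saline libraries too, which are in the fit but not in this contrast. The call of Hexa was lost without WT AngII replicate 1, 3 or 4, without KO AngII replicate 1, 2 or 4, and without KO saline replicate 2, 3 or 4 (adjusted p of 0.0513 to 0.125). That of Gusb was lost without WT AngII replicate 1, 3 or 4, KO AngII replicate 1, 2 or 4, or KO saline replicate 3 or 4 (adjusted p of 0.052 to 0.15). With WT AngII replicates 3 and 4 both left out, a setting chosen after seeing the data, the log2 fold changes under AngII were -0.41 for Hexa (adjusted p = 0.519), -0.42 for Gusb (adjusted p = 0.572) and -0.83 for Manba (adjusted p = 0.296). Those libraries had the highest macrophage marker sums of all 16. They were also the highest for the 6 fibroblast markers (9083 and 15604 CPM) and for 5 monocyte markers (56.5 and 69.2 CPM). The 10 macrophage markers summed to 227 to 318 CPM in KO AngII and 264 to 331 CPM in KO saline, against 299 to 648 CPM in WT AngII and 284 to 470.2 CPM in WT saline, with none at 0 in any library. Of the 10, 9 were lower in KO under AngII, none of them called, and Csf1r and Cd163 were called lower in KO on average (log2 fold changes -0.75 and -0.81, adjusted p = 0.0311 and 0.0404). The 6 fibroblast markers, none at 0, summed to 2616 to 4253 CPM in KO AngII, against 5444 to 15604 CPM in WT AngII. All 6 were lower in KO by sign and Col1a1 was called (log2 fold change -1.65, adjusted p = 0.0499). Averaged over both infusions, edgeR called Col1a1 and Pdgfra lower (log2 fold changes -1.51 and -0.65, adjusted p = 0.00567 and 0.0441). The part of macrophage, monocyte or fibroblast content in the differences of Manba, Hexa and Gusb was not tested. In bulk tissue, fewer cells of a type and less RNA per cell cannot be told apart.

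Fuca1, alpha-fucosidase of glycoprotein breakdown and the most abundant member of its role group per kilobase over all 16 libraries (24.3 CPM per kb; Gaa was higher in KO AngII and WT saline), was next by p under AngII and not called. It counted 77.5, 69.3, 74.0 and 67.8 CPM in KO AngII, 83.1, 78.5, 71.7 and 73.8 CPM in KO saline, 97.0, 74.9, 95.3 and 119 CPM in WT AngII, and 65.6, 75.0, 71.5 and 78.6 CPM in WT saline. In KO over WT under AngII its log2 fold change was -0.42 (SE 0.13, edgeR adjusted p = 0.0841), with WT AngII replicate 2 among the KO values. DESeq2 gave an adjusted p of 0.0296 for Fuca1, and edgeR without WT AngII replicate 2 gave 0.025. Npc1, called under saline, was lower by sign under AngII too, at -0.29 (SE 0.14, adjusted p = 0.296). Of the members, 7 were lower in KO AngII than WT AngII without overlap (Asah1, Gusb, Hexa, Manba, Naglu, Npc1 and Tpp1), where 4.8% of all genes tested were, and Gnptab, a subunit of the enzyme that adds the mannose phosphate tag, was higher without overlap, where 4.54% were. Gnptab was not called (log2 fold change 0.36, adjusted p = 0.198).

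Averaged over the 2 infusions, KO against WT used all 16 libraries and called 6 of 33 members, all lower; of all genes tested, 8.95% were called, 4.47% lower and 4.48% higher. Glycosaminoglycan-degrading enzymes contributed 2 of 7 (Gusb and Naglu), glycoprotein and glycogen glycosidases 2 of 5 (Manba and Man2b1), sphingolipid enzymes 1 of 7 (Hexa), membrane proteins 1 of 8 (Npc1) and the cholesterol, lipofuscin and tagging group 0 of 6. Manba had the largest fall (log2 fold change -0.85, SE 0.13, adjusted p = 0.00115), then Npc1 (-0.53, SE 0.10, adjusted p = 0.00567) and Gusb (-0.46, SE 0.11, adjusted p = 0.0231). Hexa (-0.39, adjusted p = 0.0309), Man2b1 (-0.42, adjusted p = 0.0311) and Naglu (-0.40, adjusted p = 0.0359) were closer to the threshold. Manba and Npc1 were called in all 16 fits that left out 1 library (highest adjusted p = 0.0036 and 0.0142) and under all 10 other settings tried. Without WT AngII replicates 3 and 4 together, Manba and Npc1 were the only 2 members called. The part of macrophage or fibroblast content in the average differences was not tested.

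Naglu removes terminal N-acetylglucosamine from heparan sulfate. Naglu counted 24.3, 21.1, 26.7 and 25.3 CPM in KO AngII, 27.0, 26.4, 20.5 and 26.4 CPM in KO saline, 32.1, 28.3, 35.1 and 39.2 CPM in WT AngII, and 35.5, 22.8, 31.1 and 36.6 CPM in WT saline. The AngII groups were apart, and in saline only WT replicate 2 reached the KO range. Its average call was the least stable, made in 6 of 16 fits without 1 library, against 9 of 16 for Hexa, 10 of 16 for Man2b1 and 14 of 16 for Gusb.

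The third comparison asked how WT aorta responds to AngII, WT AngII against WT saline. No member was called, where 0.444% of all genes tested were, 0.438% higher and 0.00626% lower. At an unadjusted p under 0.05 there were 5 members, where 8.8% of all genes tested passed, and DESeq2 and limma voom also called 0. The sign was positive for 27 of 33 members, with a median log2 fold change of 0.10 against -0.01 over all genes tested. Fuca1 (0.41, SE 0.13, adjusted p = 0.256), Gusb (0.47, SE 0.16, adjusted p = 0.337), Glb1 (0.48, SE 0.17, adjusted p = 0.347) and Hexa (0.40, SE 0.15, adjusted p = 0.384) had the smallest p. Glb1, lysosomal beta-galactosidase, counted 19.6, 21.8, 21.5 and 26.6 CPM in KO AngII, 21.7, 18.1, 18.4 and 15.6 CPM in KO saline, 28.4, 23.3, 31.3 and 41.9 CPM in WT AngII, and 21.9, 20.0, 22.9 and 24.8 CPM in WT saline. As with Hexa and Gusb, WT AngII replicate 4 was the highest library and replicate 2 lay within the saline range. Without replicates 3 and 4 the 4 log2 fold changes were 0.26, 0.17, 0.22 and 0.15. Only Lamp1 was higher in all WT AngII libraries than in all WT saline libraries, where 3.67% of all genes tested were, and no member was lower without overlap, where 2.57% were.

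**Figure D4:**
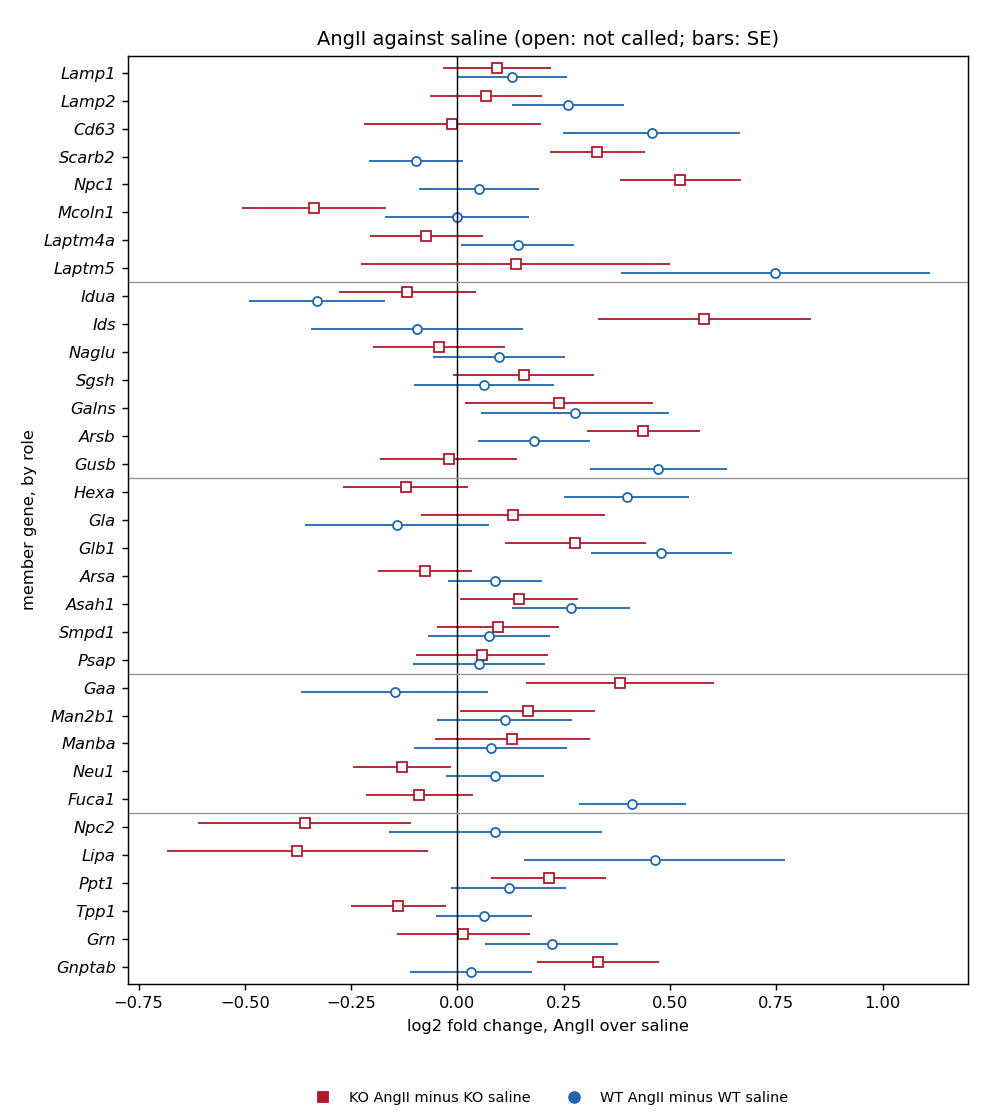
log2 fold change of each member in AngII over saline (horizontal axis; bars are SE), within KO (squares) and within WT (circles), grouped by role. All symbols are open, since no member had an adjusted p under 0.05 in either genotype.

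The fourth comparison was the same in KO mice, KO AngII against KO saline. Again no member was called, where 0.0501% of all genes tested were, all of them lower. At an unadjusted p under 0.05 there were 5 members, where 19.2% of all genes tested passed. DESeq2 called 3 members higher with AngII (Arsb, Npc1 and Scarb2) and limma voom 1 (Scarb2). Both called more of all genes than edgeR did, DESeq2 734 of 15827. The sign was positive for 20 members, with a median of 0.09 against 0.02 over all genes tested. Npc1 led by p (log2 fold change 0.52, SE 0.14, edgeR adjusted p = 0.128), with every KO AngII library above every KO saline library and below every WT library. Without the library labelled KO saline replicate 1 it was 0.41 (adjusted p = 0.247).

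Arsb, the arylsulfatase of dermatan sulfate breakdown, counted 49.5, 46.4, 55.3 and 44.4 CPM in KO AngII, 29.4, 38.4, 36.3 and 40.4 CPM in KO saline, 45.2, 46.2, 48.1 and 63.5 CPM in WT AngII, and 43.2, 47.6, 40.6 and 47.7 CPM in WT saline. Scarb2, the membrane receptor that carries glucocerebrosidase to lysosomes, counted 241, 251, 213 and 212 CPM in KO AngII, 191, 181, 187 and 171 CPM in KO saline, 190.1, 189, 186 and 230.4 CPM in WT AngII, and 229, 216, 199 and 208 CPM in WT saline. For both, the KO groups did not overlap and the WT groups did. The log2 fold change with AngII in KO was 0.44 for Arsb (SE 0.13, edgeR adjusted p = 0.146) and 0.33 for Scarb2 (SE 0.11, adjusted p = 0.166). Without the library labelled KO saline replicate 1, both were 0.36 (adjusted p = 0.282 for Arsb and 0.254 for Scarb2). By an older annotation, 39.9% of the exon bases of Arsb lie in non-coding genes on the opposite strand, so its reads are uncertain. Arsb, Npc1 and Scarb2 were the 3 members higher without overlap in KO AngII, where 4.25% of all genes tested were, and none was lower without overlap, where 3.52% were.

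Ids, the sulfatase that acts on iduronate in dermatan and heparan sulfate, counted 111, 132, 122 and 265 CPM in KO AngII, 102, 114, 99.3 and 105 CPM in KO saline, 103, 105, 138 and 109 CPM in WT AngII, and 141, 80.6, 116 and 148 CPM in WT saline. KO AngII replicate 4 stood far above the other 15 libraries. The log2 fold change with AngII in KO was 0.58 (SE 0.25, adjusted p = 0.231), and 0.20 without that library (adjusted p = 0.591). Gaa, acid alpha-glucosidase of glycogen breakdown, was also highest there, at 208 CPM against 86.7 to 107 CPM in the other KO AngII libraries. The 8 neuron and chromaffin markers summed to 9.19 to 2948 CPM in KO AngII and 35.4 to 139 CPM in KO saline, against 5.08 to 17.7 CPM in WT AngII and 8.90 to 38.4 CPM in WT saline. Up to 5 of the 8 were at 0 in a KO AngII or WT AngII library and up to 3 in a KO saline or WT saline library. The part of that content in the Ids and Gaa levels was not tested.

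The genotype by AngII interaction asked whether the AngII response differed between genotypes. No member was called, where 0.0188% of all genes tested were, and 5 had an unadjusted p under 0.05, where 11.2% of all genes tested did. DESeq2 and limma voom called 0 members. The smallest p belonged to Fuca1 (interaction -0.50 on the log2 scale, SE 0.18, edgeR adjusted p = 0.411), Scarb2 (0.43, SE 0.16, adjusted p = 0.411), Hexa (-0.52, SE 0.21, adjusted p = 0.422) and Npc1 (0.47, SE 0.20, adjusted p = 0.427). By sign, Fuca1 and Hexa were higher with AngII in WT and lower in KO, Scarb2 was higher with AngII in KO and lower in WT, and Npc1 was higher in both genotypes, by more in KO. None of these differences between genotypes passed the threshold. The average AngII effect over both genotypes called 0 members as well, where 1.04% of all genes tested were called, 0.857% higher and 0.181% lower. Of the members, 3 passed an unadjusted p under 0.05, where 15.1% did, DESeq2 called Arsb and limma voom called 0.

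Among the other membrane proteins were Laptm5, which is typical of blood cells, and the tetraspanin Cd63. Laptm5 counted 15.5, 18.3, 43.7 and 28.7 CPM in KO AngII, 28.7, 21.9, 26.1 and 19.8 CPM in KO saline, 36.0, 25.0, 54.5 and 71.4 CPM in WT AngII, and 16.8, 39.5, 21.3 and 33.6 CPM in WT saline. The 2 highest were WT AngII replicates 3 and 4, which were also the 2 highest for Cd63 (404 and 410.2 CPM), Hexa, Gusb, Glb1 and the macrophage, monocyte and fibroblast sums. Below those 2 libraries the order differed: WT saline replicate 2 was the fourth highest for the macrophage sum (388 CPM) and the lowest of 16 for Cd63 (170.2 CPM). Under AngII, the log2 fold change in KO over WT was -0.81 for Laptm5 (SE 0.36, adjusted p = 0.249) and -0.62 for Cd63 (SE 0.21, adjusted p = 0.12). Lamp1 and Lamp2 ranged from 402 to 546 and from 179 to 310.5 CPM over the libraries and were not called.

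Grn, the precursor of granulins and the most abundant member of the cholesterol, lipofuscin and tagging group per kilobase over all 16 libraries (Npc2 was higher in KO saline), counted 164, 175, 172 and 188 CPM in KO AngII, 196, 175, 149 and 173 CPM in KO saline, 196, 173, 229 and 297 CPM in WT AngII, and 192, 171, 184 and 220.0 CPM in WT saline. All 4 groups overlapped, and WT AngII replicate 4 was again the highest. The order per kilobase rests on all annotated exon bases of a gene, 3474 for Grn and 5438 for Npc2. By CPM without regard to length, Npc2 had the higher mean in all 4 groups. Lipa, lysosomal acid lipase, and Npc2, the soluble cholesterol carrier that works with Npc1, were high in a single library of most groups. Lipa counted 123, 63.3, 65.8 and 68.7 CPM in KO AngII, 171, 75.3, 86.6 and 83.6 CPM in KO saline, 95.4, 110.2, 83.2 and 106 CPM in WT AngII, and 49.8, 114, 69.6 and 53.2 CPM in WT saline. Npc2 counted 276, 226, 218 and 246 CPM in KO AngII, 464, 271, 266 and 239 CPM in KO saline, 227, 248, 181 and 239 CPM in WT AngII, and 148, 323, 219 and 153 CPM in WT saline. In each of the 4 groups the library with the highest brown adipocyte marker sum was the highest for both genes: KO AngII replicate 1 (3457 CPM), the library labelled KO saline replicate 1 (8260.5 CPM), WT AngII replicate 2 (3189 CPM) and WT saline replicate 2 (5173 CPM). The 6 brown adipocyte markers summed to 600.2 to 3457 CPM in KO AngII, 1809 to 8260.5 CPM in KO saline, 997 to 3189 CPM in WT AngII and 468 to 5173 CPM in WT saline, with none at 0. Their part in the levels of Lipa and Npc2 was not tested. Neither gene was called by edgeR in any comparison when all 16 libraries were fitted. Under saline, Npc2 was called higher in KO by edgeR without WT saline replicate 2. Limma voom called it higher there too, among 3197 of 15984 genes tested.

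**Figure D5:**
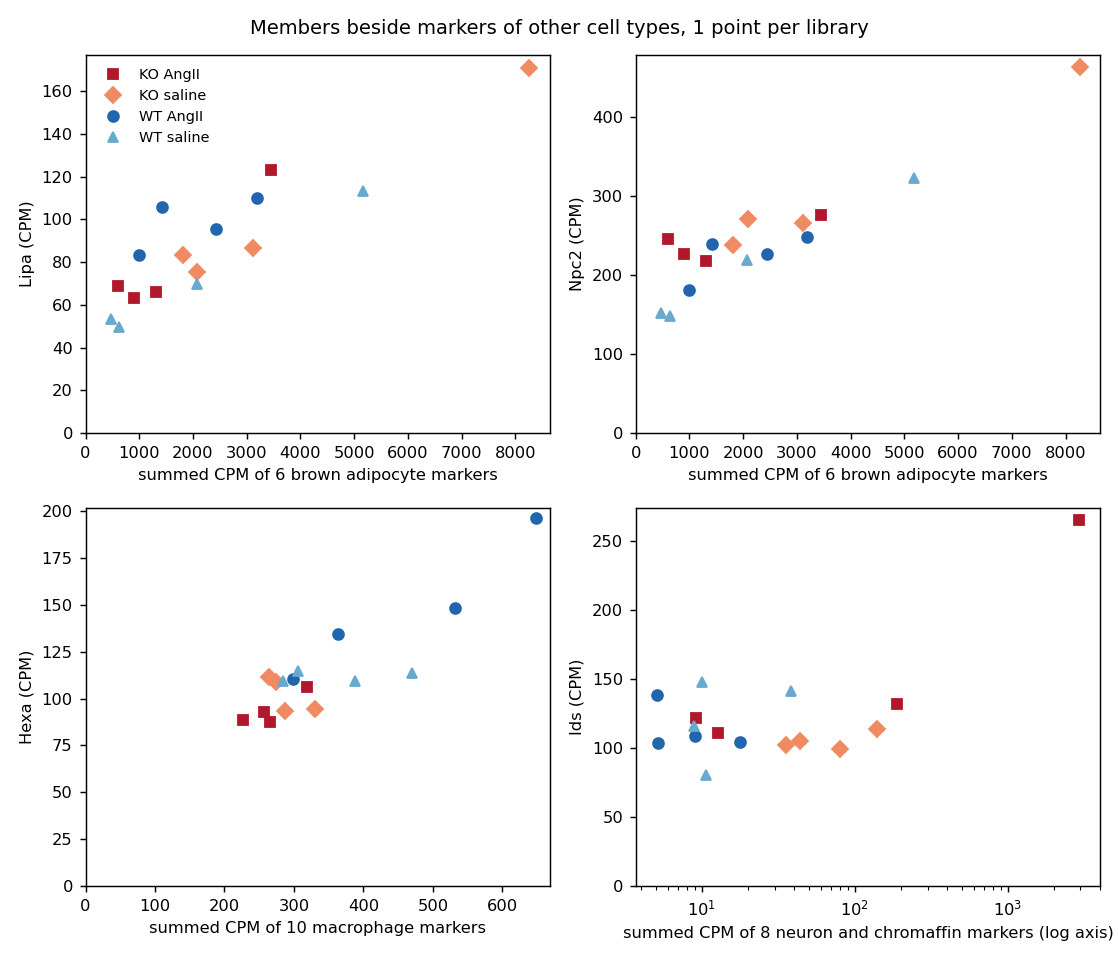
Level in CPM of Lipa, Npc2, Hexa and Ids (vertical axes) against the summed CPM of marker genes of brown adipocytes, macrophages or neurons and chromaffin cells (horizontal axes; log scale for Ids), 1 point per library. The library labelled KO saline replicate 1 is at the top right for Lipa and Npc2, WT AngII replicate 4 for Hexa and KO AngII replicate 4 for Ids.

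The remaining members were low to moderate and were not called by edgeR in any comparison when all 16 libraries were fitted. On average over both infusions, edgeR called Asah1, Sgsh and Tpp1 lower in KO without WT saline replicate 2, and Asah1 without WT AngII replicate 2. For the average KO effect, DESeq2 and limma voom each called Asah1, Sgsh and Glb1 lower, and limma voom also Tpp1. Under saline limma voom called Sgsh lower. Limma voom called 2691 of 15984 genes tested on average and 3197 under saline. Idua (14.3 to 27.7 CPM over the 16 libraries), Sgsh (13.1 to 25.3 CPM) and Galns (5.2 to 12.5 CPM) act on glycosaminoglycans. Gla (4.9 to 10.6 CPM), Arsa (36.6 to 53.1 CPM), the ceramidase Asah1 (75.8 to 143 CPM) and the sphingomyelinase Smpd1 (62.5 to 95.3 CPM) act on sphingolipids. The sialidase Neu1 ranged from 19.4 to 29.3 CPM. Ppt1, which removes fatty acids from proteins, ranged from 58.9 to 92.1 CPM, and the peptidase Tpp1 from 68.4 to 109 CPM.

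Beyond the 33 members, 5 lists of related genes were read in the same fits. In the list of other lysosomal enzymes, 2 of 23 genes were lower in KO under saline (Hyal1 and Scpep1), 2 of 23 under AngII (Pla2g15 and Scpep1) and none higher. Of all genes tested, 1.78% were called lower and 1.23% higher under saline, and 1.03% lower and 0.995% higher under AngII. Scpep1, a serine carboxypeptidase, counted 97.8, 94.4, 109 and 86.0 CPM in KO AngII, 93.5, 99.3, 79.6 and 84.1 CPM in KO saline, 129, 131, 157 and 164 CPM in WT AngII, and 142, 117, 141 and 152 CPM in WT saline. All 8 KO libraries lay below all 8 WT libraries (average log2 fold change -0.61, SE 0.09, edgeR adjusted p = 0.000867). Hyal1, a hyaluronidase, averaged 13.7 ± 3.72 CPM in KO saline and 33.6 ± 6.48 CPM in WT saline (SD, n = 4 each; log2 fold change -1.30, SE 0.28, adjusted p = 0.0248), and without the library labelled KO saline replicate 1 it was -1.15 (adjusted p = 0.0649). Pla2g15, a lysosomal phospholipase, counted 30.4, 37.5, 34.8 and 40.6 CPM in KO AngII, against 59.5, 41.2, 71.1 and 70.7 CPM in WT AngII (log2 fold change -0.76, SE 0.16, adjusted p = 0.0264). Without WT AngII replicates 3 and 4 together the adjusted p was 0.519 for Pla2g15.

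Of 18 genes for TFEB, its relatives and their nutrient-sensing regulators, Lamtor3 was the only call, lower in KO under both infusions. Of all genes tested, 1.78% were called lower under saline and 1.03% under AngII. Lamtor3, a subunit of the Ragulator scaffold on the lysosomal surface, counted 30.4, 29.2, 31.3 and 25.4 CPM in KO AngII, 29.4, 29.9, 29.7 and 34.4 CPM in KO saline, 41.9, 41.5, 45.2 and 47.2 CPM in WT AngII, and 40.7, 41.9, 44.3 and 37.4 CPM in WT saline. The genotypes did not overlap (log2 fold change -0.60 under AngII, SE 0.10, adjusted p = 0.00614; -0.41 under saline, SE 0.10, adjusted p = 0.0387). The saline call of Lamtor3 was less stable: it held in 6 of 16 fits without 1 library (highest adjusted p = 0.119) and was lost without the library labelled KO saline replicate 1 (-0.43, adjusted p = 0.0628). Without WT AngII replicates 3 and 4 together, the call under AngII was lost too (adjusted p = 0.16). The average calls of Scpep1 and Lamtor3 held in all 16 fits without 1 library (highest adjusted p = 0.003 and 0.0021).

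Of 20 subunits of the vacuolar ATPase, the proton pump that acidifies lysosomes, 19 passed the filter on low counts. Of those 19, 17 were higher in KO on average by sign, where the median log2 fold change over all genes tested was 0.04. On average 1 was called higher (Atp6v0e2, log2 fold change 1.43, SE 0.41, adjusted p = 0.0412) and 1 lower (Atp6v0c, -0.67, SE 0.18, adjusted p = 0.0317), where 4.48% of all genes tested were called higher and 4.47% lower. Those calls held in 4 and 7 of 16 fits without 1 library. Without KO AngII replicate 4, Atp6v0e2 was 0.73 (adjusted p = 0.0333) and Atp6v0c -0.89 (adjusted p = 0.000302). Over the 20 subunits, KO AngII replicate 4 summed to 2396 CPM and the library labelled KO saline replicate 1 to 1861 CPM, while the other 6 KO libraries (1188 to 1316 CPM) lay within the WT range of 1101 to 1338 CPM. Atp6v1a, its catalytic subunit, was called higher in KO under AngII, at 147, 139.9, 187 and 212 CPM in KO AngII and 117, 113, 110.3 and 105 CPM in WT AngII (log2 fold change 0.62, SE 0.14, adjusted p = 0.0364). It was 0.49 (adjusted p = 0.0932) without KO AngII replicate 4, the highest library. Atp6v0e2 was also highest there, at 102 CPM against 7.7 to 22.2 CPM in the other KO AngII libraries. The lists of other lysosomal membrane proteins (17 genes) and of sorting factors (11 genes) held no call in any comparison. In them the smallest p for KO against WT belonged to Lmbrd1 under AngII (log2 fold change 0.27, adjusted p = 0.122) and Tmem192 under saline (0.90, adjusted p = 0.157), and to Gga2 under AngII (0.36, adjusted p = 0.0949).

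With AngII, no gene of the 5 lists was called in either genotype or in the interaction. Of all genes tested, 0.444% were called in WT, 0.0501% in KO and 0.0188% in the interaction. In KO, the smallest p in each list belonged to Atp6v1a (log2 fold change 0.64, adjusted p = 0.106), Hyal1 (0.84, adjusted p = 0.162), Lmbrd1 (0.31, adjusted p = 0.141), Gga2 (0.24, adjusted p = 0.249) and Rragb (1.63, adjusted p = 0.181). In WT, the smallest p in 4 of the lists belonged to Atp6v0e (0.29, adjusted p = 0.892), Pla2g15 (0.47, adjusted p = 0.326), Cd68 (0.94, adjusted p = 0.436) and Fnip2 (-0.30, adjusted p = 0.614). The interaction was largest for Rragb (2.23, adjusted p = 0.411) and Hyal1 (1.34, adjusted p = 0.361) among the genes with the smallest p in each list.

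The promoters of the called members were read for the core of the CLEAR motif, CACGTG, and for TCACGTGA, which contains it and so overlaps it. Each is its own reverse complement, so both strands were covered. RefSeq windows of 250 bases before to 50 bases after the gene start (GRCm38.p6) were at hand for 30 of 33 members. CACGTG was in 8 of 30 (26.7%), against 8.09% of 27025 genes and TCACGTGA in 2 (6.67% against 1.13%). The full CLEAR motif was searched as the palindrome that extends TCACGTGA by 1 base on each side. It was in 0 of 30, against 0.37% of genes, so the matches in members were to shorter parts of the motif and not to all of it. The 8 were Arsa, Gaa, Gla, Glb1, Lamp1, Mcoln1, Naglu and Sgsh. Of the 5 members called lower in KO on average that had a window, 1 held CACGTG (Naglu), as did 7 of the 25 others. A match is only a match of letters, and the absence of one says only that these letters are not in the window.

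The 250 bases upstream of the 5 called members with a window are shown with those of Lamp1 and Mcoln1, whose levels were not called and which hold 4 and 2 cores. The sequences are from RefSeq on GRCm38.p6, written 5′ to 3′ on the gene's strand, and capitals mark the motif.
Manba (chr3:135485361-135485610, + strand): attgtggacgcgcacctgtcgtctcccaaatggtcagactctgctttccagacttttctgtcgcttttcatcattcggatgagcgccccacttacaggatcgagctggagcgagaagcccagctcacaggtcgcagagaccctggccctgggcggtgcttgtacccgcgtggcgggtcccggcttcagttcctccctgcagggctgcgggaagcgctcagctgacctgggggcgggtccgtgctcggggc
Gusb (chr5:130003050-130003299, - strand): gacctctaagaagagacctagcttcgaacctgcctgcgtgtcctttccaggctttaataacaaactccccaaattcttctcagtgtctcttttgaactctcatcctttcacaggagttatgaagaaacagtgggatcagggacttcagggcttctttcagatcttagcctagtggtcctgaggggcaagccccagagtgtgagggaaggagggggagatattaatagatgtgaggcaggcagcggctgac
Hexa (chr9:59539290-59539539, + strand): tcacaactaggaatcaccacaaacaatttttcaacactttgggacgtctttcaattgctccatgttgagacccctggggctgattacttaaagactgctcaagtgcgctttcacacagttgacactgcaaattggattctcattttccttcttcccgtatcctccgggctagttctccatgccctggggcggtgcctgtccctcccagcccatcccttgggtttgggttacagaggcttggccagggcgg
Man2b1 (chr8:85083019-85083268, + strand): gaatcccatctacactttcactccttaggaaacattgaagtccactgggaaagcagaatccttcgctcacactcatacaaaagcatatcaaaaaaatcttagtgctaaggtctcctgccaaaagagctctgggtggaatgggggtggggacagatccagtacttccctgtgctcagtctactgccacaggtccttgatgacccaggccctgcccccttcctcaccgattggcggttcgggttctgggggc
Naglu (chr11:101069844-101070093, + strand): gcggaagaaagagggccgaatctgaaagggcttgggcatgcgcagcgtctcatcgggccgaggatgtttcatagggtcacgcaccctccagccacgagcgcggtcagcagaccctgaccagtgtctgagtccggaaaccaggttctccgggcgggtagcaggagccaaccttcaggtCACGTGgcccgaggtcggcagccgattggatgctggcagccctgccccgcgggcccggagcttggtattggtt
Lamp1 (chr8:13158911-13159160, + strand): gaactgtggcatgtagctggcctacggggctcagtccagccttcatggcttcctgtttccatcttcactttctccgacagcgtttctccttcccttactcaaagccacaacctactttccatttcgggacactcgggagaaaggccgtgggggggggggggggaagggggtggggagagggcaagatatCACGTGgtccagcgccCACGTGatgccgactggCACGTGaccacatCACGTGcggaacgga
Mcoln1 (chr8:3500269-3500518, + strand): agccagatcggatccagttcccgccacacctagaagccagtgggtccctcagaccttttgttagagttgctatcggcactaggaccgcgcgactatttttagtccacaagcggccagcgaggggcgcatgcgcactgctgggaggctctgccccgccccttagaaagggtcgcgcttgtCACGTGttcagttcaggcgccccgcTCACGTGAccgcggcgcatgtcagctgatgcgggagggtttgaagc
The cores of Lamp1 began 61, 45, 28 and 15 bases upstream of the start, those of Mcoln1 71 and 45 bases upstream, and that of Naglu 73 bases upstream.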

How the data were processed

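The members and gene lists were chosen with earlier results of these data known. Poly-A enriched libraries of 16 aortae were sequenced in pairs of reads; titles gave each its group and number. The authors deposited raw read counts per gene, with no normalization. The submitters' processing notes name GRCm39, featureCounts 1.5.0-p3, HISAT2 2.0.5 and DESeq2 1.20.0; the strand setting and annotation release were not given in the sources used here. Exon lengths, gene overlap and promoters came from GRCm38 tables and serve only as stated. Members had 70 or more reads in each library, and p-values rest on the spread between libraries.

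From the counts, genes were filtered by edgeR's default (15984 kept, 13711 removed; at another setting, 1 CPM in 4 libraries) and scaled by trimmed mean of M values. Tests used edgeR's quasi-likelihood method (edgeR 4.0.16, R 4.3.3), with 1 fit of 16 libraries with a mean per group, 12 residual degrees of freedom and Benjamini-Hochberg adjustment over all genes tested. SE is the absolute log2 fold change over the root of F. The common biological variation over all genes tested was 35.3% (coefficient of variation). Tests were two-sided. The code was tested on simulated data. Alternatives were DESeq2 1.42.0, limma voom 3.58.1, other scalings and filters, only the groups compared, the replicate block and libraries left out.

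Values in every library are given for members called in a comparison, otherwise for those with the smallest p up to 4 per comparison, and for the most abundant member of each role group per kilobase. Values of Lipa, Npc2, Gaa, Cd63 and Laptm5 were added after they were seen. From each related list the called genes are named, up to 3 by p. A gene that this rule names is not reported here.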

Additional observations from a re-analysis of the deposited data

Results flagged for a closer look

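In 13 of 132 sets of 4 libraries (1 member in 1 group), the highest or lowest library stood apart from the other 3 by Dixon's criterion. Chance gives about 5% for independent sets. These sets share the same 16 libraries, so the count cannot be judged against that share.

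In KO AngII, Gaa was 208 CPM and Ids 265 CPM in replicate 4, and Lipa was 123 CPM in replicate 1, all high. In KO saline, the library labelled replicate 1 was high for Lipa (171 CPM) and Npc2 (464 CPM), and replicate 3 was low for Naglu (20.5 CPM).

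In WT AngII, replicate 4 was high for Arsb (63.5 CPM), Ppt1 (89.9 CPM) and Scarb2 (230.4 CPM), replicate 3 was high for Ids (138 CPM) and Tpp1 (109 CPM), and replicate 1 was low for Neu1 (24.7 CPM). In WT saline, replicate 2 was low for Cd63 (170.2 CPM). For no member did all KO libraries move with AngII in the direction opposite to all WT libraries.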

How the results depend on the processing

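No result reversed. Among values of named genes under an alternative, 835 stayed on their side of the threshold, 168 lost a call and 8 gained one. The average KO falls of Manba, Npc1, Scpep1 and Lamtor3 kept their calls under every alternative run. RLE scaling changed no member count. Causes were not tested.

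Members called, for KO against WT under saline (2), were 7 by limma voom (2 higher, 5 lower) and 0 with only the groups compared. Limma voom called 3197 of 15984 genes tested under saline and 2691 for average KO. Under AngII (3), members called were 1 with only the groups compared and 1 without KO saline replicate 1 and KO AngII replicate 4. They were 0 with the replicate block and 0 without WT AngII replicates 3 and 4. For average KO (6) they were 10 by limma voom and 2 without WT AngII replicates 3 and 4. For AngII in KO (0) they were 3 by DESeq2 and 1 by limma voom, and for average AngII (0) 1 by DESeq2.

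Genes called, for AngII in WT (71), were 280 by DESeq2, 254 by voom, 42 with the replicate block, 128 without the 2 KO libraries and 0 without WT AngII replicates 3 and 4. For AngII in KO (8) they were 734 by DESeq2, 561 by voom, 4 with only the groups compared and 14 with the block. For KO against WT under saline (481) they were 1362 by DESeq2, 3197 by voom, 203 with only the groups compared and 320 without WT AngII replicates 3 and 4. Under AngII (324) they were 1230, 580, 102 and 39 in the same order, and 166 with the block. The interaction (3) gave 104 by DESeq2 and 173 by voom. Average AngII (166) gave 666, 549 and, without WT AngII replicates 3 and 4, 2. Average KO (1431) gave 2292, 2691 and 346.

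Leaving out 1 library gave 3 to 115 genes for AngII in WT, 6 to 32 for AngII in KO, 105 to 1744 and 100 to 845 for KO against WT under saline and AngII, 2 to 12 for the interaction, 42 to 252 for average AngII and 691 to 2156 for average KO. Members were 0 to 0 for both AngII comparisons, the interaction and average AngII, 1 to 4 and 0 to 5 for KO against WT under saline and AngII, and 2 to 11 for average KO.

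The replicate numbers did not pair the libraries: over 24 same-numbered pairs the correlation of deviations ran from -0.42 to 0.44, 8 were over 0.1, and 5 were the best match on both sides. With the block the 3 calls under AngII missed the threshold (adjusted p = 0.0579 for Manba, 0.0719 for Hexa and 0.0742 for Gusb).

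Mitochondrial counts took 26.96% to 32.8% of KO saline libraries and 8.33% to 24.3% of the others. Scaled without them, the summed member level was 5790 CPM in KO AngII, 5659 CPM in KO saline, 6460 CPM in WT AngII and 5939 CPM in WT saline, with the same member calls and Glb1 added on average. With 4 libraries a group, small changes can be missed. The members' coefficient of variation within groups had a median of 13.1%, and the common biological variation over all genes tested was 35.3%.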
